A study of Mus musculus with 54 samples.

Results

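The 10 genes described here are the core of the mouse Hippo pathway: the kinases Stk3, Stk4, Lats1 and Lats2, the coactivators Yap1 and Wwtr1 (Taz), and the DNA-binding factors Tead1, Tead2, Tead3 and Tead4. They were selected by symbol and found through their NCBI gene numbers among the 19653 genes listed in 27 deposited tables. All 10 were listed in every table, and all 10 passed the limit on low values there (a normalised read count of at least 10 in the higher group). The tables came from poly-A RNA-seq of 54 samples in 18 groups, which were 6 lines of H2K mouse myogenic progenitors sampled on 3 days. Of the tables, 15 set a line against wildtype on the same day and 12 set a day against the day before within a line. The question was how emerin, an inner nuclear membrane protein whose loss causes Emery-Dreifuss muscular dystrophy, bears on the expression programme of differentiating myogenic cells.

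H2K progenitors are conditionally immortal mouse muscle precursors, kept cycling in the presence of γ-interferon and allowed to fuse into myotubes after a switch to low-serum medium. Per the study's methods, the switch also changed temperature and CO2, and the differentiation medium lists no γ-interferon. Day 0 was the plated state before the switch, and days 1 and 2 were 24 and 48 hours after the switch. The wildtype line carried its own Emd gene, and the emerin-null line (EMD-/y) carried none that was expressed. The other 4 lines were EMD-/y cells that received emerin from a lentivirus under puromycin selection: unaltered emerin (+EMD), or emerin with the disease variants S54F, Del95-99 (without residues 95 to 99) or Q133H. All 4 therefore shared the null background with EMD-/y, and differed from wildtype also in transduction, puromycin and plating density. No group of EMD-/y cells with an empty vector was analysed here. These features and the emerin variant therefore cannot be told apart in a comparison with wildtype. Puromycin dose also differed among the transduced lines, per the study's methods. The study reports more emerin protein in Q133H than in wildtype, and similar levels to wildtype in the other transduced lines. Contrasts among the transduced lines are therefore not contrasts of the emerin variant alone, and the part of dose or protein amount was not tested. Whether a line arose from 1 clone was not given in the sources used here. The labels give 3 replicates for each group, which may be technical in part, since the methods describe technical triplicates of biological replicates. The tables hold 1 value per group, and the authors' own p-values and q-values are not reported here. No error, test or n of replicates therefore accompanies the values below. A difference is described only by its size and by how often it recurs across lines and days. The tables against wildtype reuse the same wildtype group on each day, and the other 5 lines share the null background. Recurrence across those lines is therefore not independent, since an offset of wildtype or of the null parent would recur in all of them.

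In the Hippo pathway, Stk3 and Stk4 (Mst2 and Mst1) phosphorylate and activate Lats1 and Lats2. The Lats kinases phosphorylate Yap1 and Wwtr1, which holds these coactivators in the cytoplasm or marks them for degradation. Coactivators that escape enter the nucleus and join a Tead factor on DNA, where they drive genes for growth and matrix. In muscle, Yap1 activity is known to keep progenitors dividing, and Tead factors bind the MCAT motif in promoters of many muscle genes. Because much of this control works on protein, RNA levels describe the supply of each component and not its activity. In GRCm38.p6, the kinases lie at separate loci: Stk3 (NCBI gene 56274) at chr15:34875499-35155882, Stk4 (NCBI gene 58231) at chr2:164074113-164155524, Lats1 (NCBI gene 16798) at chr10:7681200-7716461 and Lats2 (NCBI gene 50523) at chr14:57689662-57746212. The coactivators are Yap1 (NCBI gene 22601) at chr9:7931999-8004638 and Wwtr1 (NCBI gene 97064) at chr3:57455644-57575910. The Teads are Tead1 (NCBI gene 21676) at chr7:112679356-112906784, Tead2 (NCBI gene 21677) at chr7:45215792-45233468, Tead3 (NCBI gene 21678) at chr17:28331671-28350805 and Tead4 (NCBI gene 21679) at chr6:128227143-128300813, so that Tead1 and Tead2 share a chromosome. The values cover all transcripts of a gene together.

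The sequences before the starts of Yap1, Wwtr1 and Tead3 are shown because each holds the MCAT motif CATTCC that Tead factors bind, so that these coactivator and Tead genes carry the letters of a Tead site. RefSeq windows of 250 bases before to 50 after an annotated start (GRCm38.p6, the build of the mm10 files) were available for 7 of the 10 genes, and Tead1, Tead4 and Stk3 had no window. Either strand of CATTCC was found in 6 of the 11 windows, and in at least 1 window of 4 of the 7 genes (Yap1, Wwtr1, Tead3 and Lats2). Over all 32851 windows of the same length, 14.7% held it, as did 16.6% of all genes in at least 1 window. The Wwtr1 windows overlap and hold the same match at the same position, so this site is counted in each of them. The E-box CAGCTG, which the muscle factor Myod1 prefers, was in 0 of the 11 windows and in 16.3% of all windows, and the general E-box CANNTG, which includes CAGCTG, was in 4 of the 11 and in 72.3% of all. The sequences below are the bases before the start that lie outside the gene record, on the minus strand and 5′ to 3′, with the motif in capitals (GGAATG is CATTCC on the other strand).
Yap1, chr9:8004639-8004846: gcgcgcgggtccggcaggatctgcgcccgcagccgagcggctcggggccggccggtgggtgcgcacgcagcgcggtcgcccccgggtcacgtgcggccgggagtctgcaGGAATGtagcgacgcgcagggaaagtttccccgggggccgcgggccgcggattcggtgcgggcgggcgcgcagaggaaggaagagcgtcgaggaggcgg
Wwtr1, chr3:57575911-57576160: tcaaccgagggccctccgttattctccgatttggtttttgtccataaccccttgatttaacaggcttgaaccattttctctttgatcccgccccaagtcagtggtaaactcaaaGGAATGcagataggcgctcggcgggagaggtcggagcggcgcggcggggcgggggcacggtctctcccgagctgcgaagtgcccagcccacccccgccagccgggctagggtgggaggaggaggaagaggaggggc
Tead3, chr17:28350806-28351055: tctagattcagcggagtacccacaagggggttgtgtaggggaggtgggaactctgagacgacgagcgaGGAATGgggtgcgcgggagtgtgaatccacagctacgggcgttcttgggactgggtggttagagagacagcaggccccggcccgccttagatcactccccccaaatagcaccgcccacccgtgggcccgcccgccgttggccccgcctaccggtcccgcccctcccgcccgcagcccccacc
The motif began 141 bases before the start in Yap1, 136 before it in Wwtr1 and 182 before it in Tead3. The annotated Yap1 start lies inside the gene record, so its printed stretch of 208 bases stops short of that start. Its position is therefore not counted from the last printed base. A second Tead3 window, at a start inside the gene, held it 3 times. In Lats2 the match began at base 5 after the start, so it is not shown. The Stk4, Tead2 and Lats1 windows held no match. A match is a description of the letters and not evidence that a Tead factor binds there.

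A pair of quantities is used below. A level is the group value deposited by the authors scaled so that its column sums to 1000000 (CPM), taken as the median over the 2 to 7 tables that hold the group, and levels of different genes are compared only per kb of transcript length. A log2 ratio is the log2 of 1 group value over the other in the same table, on the authors' normalisation, under which the median gene moved by −0.02 to 0.02. Scaling to CPM instead shifted every ratio of a table by −0.27 to 0.25, by more than 0.1 in 9 of the 27 tables, the most in those that reach day 2 or set Del95-99 or Q133H against wildtype. Between tables the level of a member in a group varied by at most 1.06 times for Tead4 and 1.01 times for the other 9. The larger differences described below are well beyond this variation, but some of the small ones are of a like size. This variation arises within the fitting of the tables and is not replicate error. The sums of the group values were 16719491 to 21128040 normalised reads, and the size factors of single libraries, read from genes with 1 read, lay between 0.849 and 1.15, so depth was similar throughout.

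The labels were checked with Emd and with cell-type markers. Emd was at 105, 95.1 and 54.8 CPM in wildtype on days 0, 1 and 2 and at most at 0.189 in the other 15 groups, the 4 lines with returned emerin included, so the transgene's transcript was not counted as mouse Emd. Emd thus sets wildtype apart but cannot check the labels of the other lines against each other. Of 6 markers of myogenic progenitors, 5 or 6 were at 1 CPM or more in every group, and the exception among lines was Pax7, at 0.179 to 0.458 in Q133H. Endothelial, immune, adipocyte and Schwann markers summed, list by list, to at most 6.18 CPM in any group. The 4 markers of fibroblasts or fibro-adipogenic cells summed to 17.6 to 266, nearly all of it Ly6a (15.4 to 264), while Pdgfra stayed at 0.634 to 3.87. In bulk RNA, fewer cells of a kind and less RNA per cell cannot be told apart.

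Measured per kb, the components were not equally abundant. The median over the 18 groups was highest for Tead2 (60.7 CPM per kb) and Wwtr1 (51.2), followed by Tead1 (37.1) and Yap1 (35.8). Lats2 (19.0), Stk3 (17.4), Tead4 (16.6), Tead3 (13.5), Stk4 (11.7) and Lats1 (9.52) were lower. Neighbours in this order such as Tead1 and Yap1, or Lats2, Stk3 and Tead4, had ranges over the groups that overlapped widely. By these medians, the coactivators and 2 of the Teads were more abundant as RNA than any of the kinases. The genes also differed in how much they varied, from 1.31 times between the lowest and the highest group for Yap1 to 13.2 times for Tead4.

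**Figure D1:**
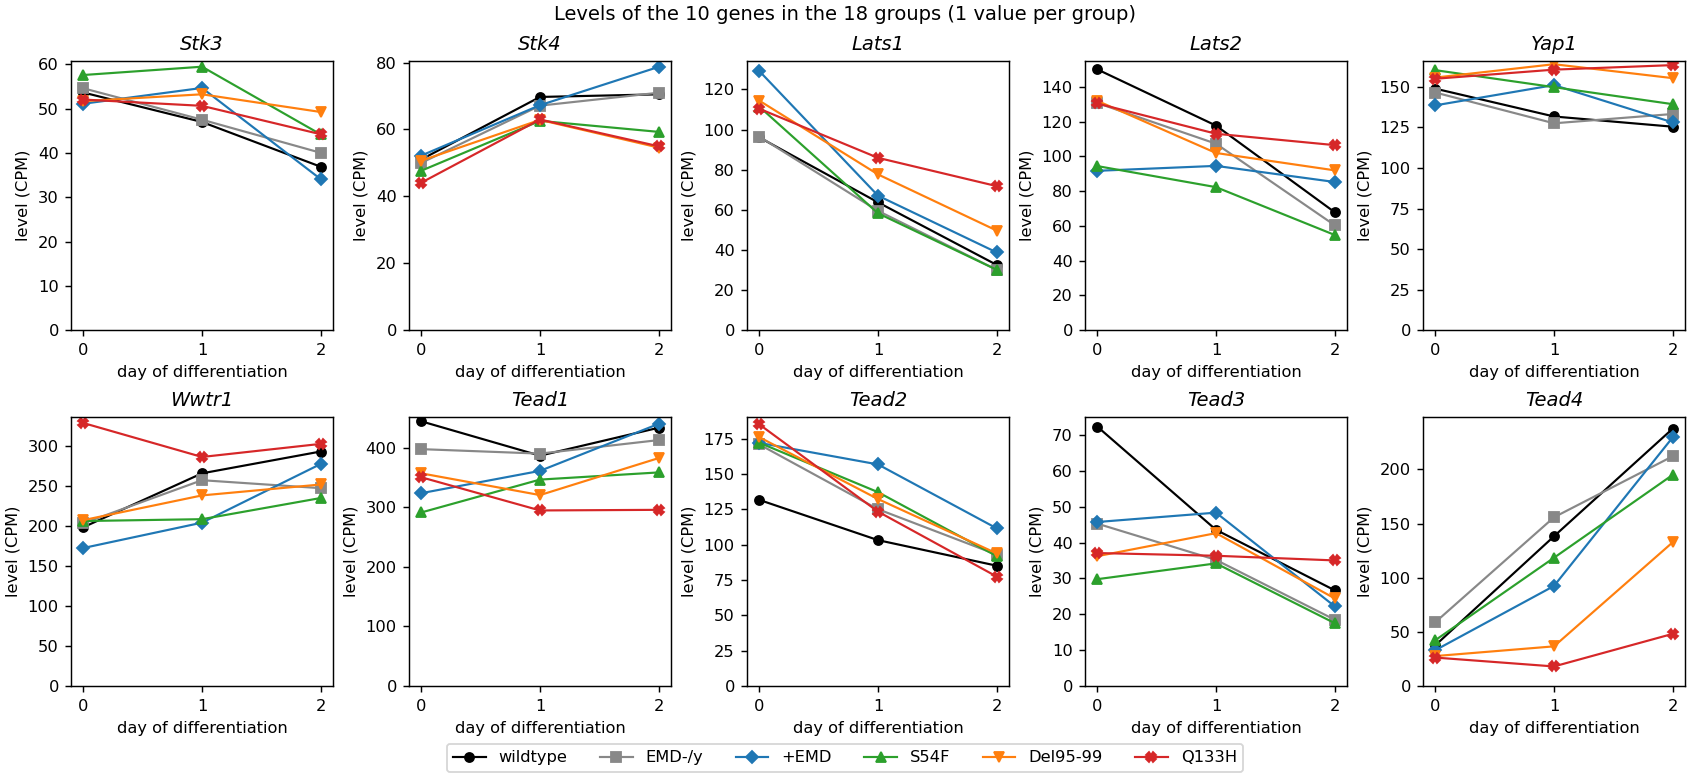
Level (CPM, linear axis from 0) of each of the 10 genes against day of differentiation, with 1 point per group and 1 line per cell line and no error bars, since each group has 1 deposited value. Tead4 climbs from 37.5 to 238 in wildtype and stays at 17.96 to 48.1 in Q133H, Lats1 and Tead2 decline in all 6 lines, and Yap1 stays between 125 and 164 in all 18 groups.

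The upstream kinases varied little. Stk3 lay between 34.1 and 59.5 CPM in all 18 groups, with its lowest value in +EMD on day 2 and its highest in S54F on day 1. From day 0 to day 2 its level changed from 53.6 to 36.9 in wildtype and from 52.0 to 44.2 in Q133H, and the level was lower on day 2 in all 6 lines, although on the authors' normalisation Del95-99 was at 0.02 and 0.03 on the log2 scale over both steps. Against wildtype its log2 ratio ran from −0.16 to 0.31 over the 15 tables. Stk4 moved the other way, from 51.0 to 69.7 and 70.5 in wildtype over the 3 days and from 44.1 to 63.0 and 55.0 in Q133H. Its day 2 level was 1.08 to 1.51 times its day 0 level across the lines. The difference between lines was widest on day 2, when Stk4 stood at 78.7 in +EMD against 55.0 in Q133H and 54.6 in Del95-99, log2 ratios to wildtype of 0.12, −0.62 and −0.55.

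Lats1, 1 of the 2 kinases that act directly on Yap1 and Wwtr1, fell with differentiation in every line. Its level was 96.1, 63.7 and 32.6 CPM in wildtype on days 0, 1 and 2, and 96.5, 59.5 and 30.1 in EMD-/y. It went from 129 through 67.0 to 38.8 in +EMD and from 111 through 58.3 to 30.1 in S54F. In these 4 lines, day 2 stood at 0.270 to 0.339 of day 0. In Del95-99 the values were 114, 77.6 and 49.7, and in Q133H they were 110.4, 85.9 and 71.8, so that day 2 stood at 0.434 and 0.651 of day 0. The log2 ratio of Lats1 between consecutive days was below 0 in all 12 tables on both scales and ran from −1.02 (+EMD, day 0 to day 1) to −0.23 (Q133H, day 1 to day 2). On day 2, Q133H was above wildtype by a log2 ratio of 0.88, which was 1.13 on the CPM scale and thus past 2-fold on that scale only. Del95-99 was above by 0.42 and +EMD by 0.21.

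Lats2, the paralogue of Lats1 and itself known as a Yap1 target gene, split the lines differently. Its level was 150.1, 118 and 67.9 CPM in wildtype and 131, 107 and 60.4 in EMD-/y on the 3 days. In +EMD it was 91.7, 94.6 and 85.3, and in S54F it was 94.5, 82.3 and 54.8. Both lines thus started below wildtype by a log2 ratio of −0.70 and −0.70 on day 0, and by day 2 +EMD was at 0.930 and S54F at 0.580 of the day 0 level. In Del95-99 (132, 102 and 92.0) and Q133H (130.5, 113 and 106.5) the day 0 value was near that of EMD-/y and the day 2 values were the 2 highest of the 6 lines. Only on day 2, and only in +EMD, Del95-99 and Q133H, was the ratio to wildtype above 0 (0.29, 0.25 and 0.39). In these 3 lines, Lats2 was at 0.697 to 0.930 of its day 0 level on day 2, against 0.452 to 0.580 in the other 3.

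Yap1 was the steadiest of the 10 genes. Its level was 149, 132 and 125 CPM in wildtype on days 0, 1 and 2, and 155, 161 and 163 in Q133H. Over the 15 tables against wildtype its log2 ratio stayed between −0.09 and 0.19, and over the 12 tables between days it stayed between −0.17 and 0.30. The direction of these small day changes depended on the scale: 9 of 12 were above 0 on the authors' normalisation and 5 of 12 on the CPM scale. Against wildtype it was at most 1.14-fold higher and 1.06-fold lower in any table, and the widest log2 ratio on the CPM scale was 0.37. The Yap1 ratio was above 0 in 11 of the 15 tables, and in 12 on the CPM scale. In S54F, Del95-99 and Q133H it was above 0 on every day on both scales. Over days 0, 1 and 2 it was 0.07, 0.15 and 0.19 in S54F. In Del95-99 it was 0.03, 0.18 and 0.12, and in Q133H 0.02, 0.18 and 0.12. EMD-/y (−0.01, −0.04 and 0.15) and +EMD (−0.09, 0.12 and −0.01) had both signs.

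Wwtr1, the paralogue of Yap1, was the more variable of the coactivators. In wildtype it rose from 199 to 266 and 294 CPM over the 3 days, and in +EMD from 173 to 205 and 278. EMD-/y (204, 258 and 248), S54F (207, 209 and 235) and Del95-99 (208, 239 and 252) started near wildtype and ended below it. Q133H stood apart on day 0, at 329, a log2 ratio of 0.69 to wildtype, and stayed below that value afterwards (287 on day 1 and 303 on day 2). Per kb, Wwtr1 exceeded Yap1 in all 18 groups, by 1.095 to 2.06 times. The ratio of Wwtr1 to Yap1 rose in wildtype from 1.17 through 1.78 to 2.06, and in Q133H it was 1.87, 1.57 and 1.63.

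Tead1, the Tead most often linked to muscle promoters, was lower than wildtype in 14 of the 15 tables (13 on the CPM scale), by log2 ratios down to −0.81. Its wildtype level was 444, 386 and 433 CPM on days 0, 1 and 2. The lowest values were 291 in S54F on day 0 and 294.5 and 295.5 in Q133H on days 1 and 2. On day 2 +EMD was at 440 and EMD-/y at 413, whereas S54F and Del95-99 were at 358 and 382. Q133H was thus the line in which Tead1 was farthest below wildtype on day 2. Its Tead1 ratio was −0.81 there, against −0.37 to −0.01 in the other 4 lines.

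Tead2 was above wildtype in 13 of the 15 tables (14 on the CPM scale), in most of them opposite to Tead1, and fell with time. Its level was 132, 103 and 85.1 CPM in wildtype. On day 0 all 5 other lines were higher, between 171 and 185, with log2 ratios of 0.35 to 0.46. On day 2 they lay between 77.4 and 112, on both sides of the wildtype value, with log2 ratios from −0.40 (Q133H) to 0.35 (+EMD). The ratio between consecutive days was below 0 in all 12 tables, from −0.64 to −0.09, and the same held on the CPM scale. Tead2 ended highest in +EMD (112) and lowest in Q133H (77.4), which was at 0.418 of its own day 0 level.

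Tead3 separated wildtype from all other lines before differentiation. On day 0 its level was 72.4 CPM in wildtype, 45.3 in EMD-/y, 45.7 in +EMD, 29.8 in S54F, 36.2 in Del95-99 and 37.1 in Q133H. The group values in the tables were 1324 normalised reads in wildtype against 534 in S54F, a ratio of −1.31 on the log2 scale or 2.48-fold lower. Del95-99 was lower by −1.04 and Q133H by −0.999, which is 1.998-fold and so just short of 2-fold. On the CPM scale, Del95-99 also came out just short of 2-fold. EMD-/y and +EMD were alike at −0.66 and −0.65. On day 1 the lines had drawn together (34.2 to 48.4, with wildtype at 43.6), since Tead3 had fallen in wildtype by 0.69 and in EMD-/y by 0.33 on the log2 scale and changed by −0.03 to 0.23 in the other 4 lines. From day 1 to day 2 it fell by 0.52 to 0.88 in 5 lines and was level in Q133H (−0.03), where it ended at 35.0 against 17.5 to 26.7 elsewhere.

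Tead4, a Tead known to be switched on by the myogenic factors during differentiation, changed most of the 10 genes. Its level was 37.5, 138 and 238 CPM in wildtype on days 0, 1 and 2, and 58.8, 156 and 212 in EMD-/y. It was 33.0, 92.3 and 229.6 in +EMD and 42.2, 118 and 195 in S54F. All 4 lines ended day 2 at 195 to 238, 3.61 to 6.97 times their day 0 level. In Del95-99 the values were 27.6, 36.5 and 132.7, so that nearly all of the rise came after day 1. In Q133H they were 26.2, 17.96 and 48.1, a decrease followed by a rise to 1.84 times the day 0 level. Every day 1 and day 2 value of Q133H was below every day 1 and day 2 value of the other lines except the day 1 value of Del95-99.

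In the tables against wildtype, Tead4 in Q133H stood at 324 against 2696 normalised reads on day 1, a log2 ratio of −3.06 or 8.33-fold lower. On day 2 it stood at 850 against 4837, a ratio of −2.51. In Del95-99 the ratio was −2.05 on day 1 and −1.03 on day 2, and the latter was short of 2-fold on the CPM scale (−0.84). The day 1 value of Q133H was among the lowest 5.24% of all genes tested in that table, and that of Del95-99 among the lowest 5.68%. On day 0 the same lines were below wildtype by −0.53 and −0.48. EMD-/y was above wildtype on day 0 (0.63) and at 0.18 and −0.11 on days 1 and 2. +EMD was below by −0.66 on day 1 and by −0.09 on day 2, and S54F gave 0.13, −0.25 and −0.25 over the 3 days.

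Counted over the 15 tables, 0 of the 150 values of the 10 genes were at least 2-fold above wildtype and 6 were at least 2-fold below. Among all genes tested there, 8.15% of values were at least 2-fold higher and 8.36% at least 2-fold lower, and neither count of the 10 genes stood above this background. For EMD-/y, 0 of 10 passed on days 0, 1 and 2, where 9.12%, 7.68% and 7.98% of all genes passed in either direction. For +EMD it was also 0 of 10 on each day, against 17.3%, 20.1% and 18.8%. S54F had 1 of 10 on day 0 (Tead3) against 12.3%, and 0 on days 1 and 2 against 12.5% and 11.1%. Del95-99 had 1 of 10 on each day (Tead3, then Tead4 on both later days) against 12.7%, 21.3% and 22.5%. Q133H had 0 of 10 on day 0 against 15.1%, and 1 of 10 (Tead4) on days 1 and 2 against 24.6% and 33.9%. The median size of the log2 ratio over the 10 genes was below that over all genes in 13 of the 15 tables.

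**Figure D2:**
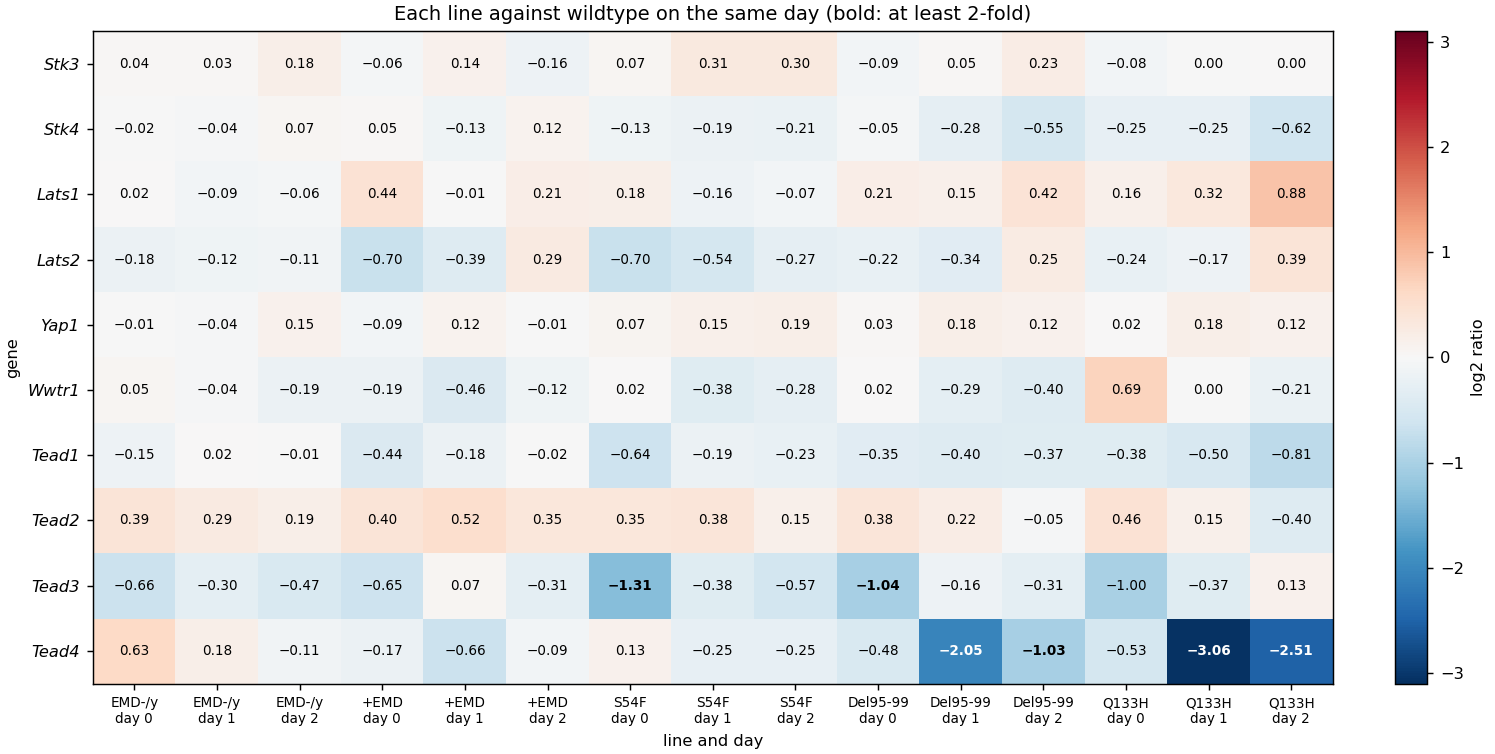
Log2 ratio of each of the 10 genes (rows) in each line against wildtype on the same day (columns), from the deposited group values, with red above and blue below wildtype and values of at least 2-fold in bold. The 6 bold cells are Tead4 in Del95-99 and Q133H on days 1 and 2 and Tead3 in S54F and Del95-99 on day 0, and no red cell reaches 2-fold.

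Between days, 7 of the 120 values were at least 2-fold higher on the later day and 1 was at least 2-fold lower, where all genes gave 9.28% and 8.63%. All 7 were Tead4 and the 1 was Lats1 in +EMD. From day 0 to day 1, wildtype had 1 of 10 past 2-fold (Tead4, 1.89) against 23.3% of all genes, EMD-/y 1 (Tead4, 1.41) against 21.9%, and +EMD 2 (Tead4, 1.40, and Lats1, −1.02) against 17.8%. S54F had 1 (Tead4, 1.51) against 17.1%, Del95-99 had 0 against 14.5% and Q133H had 0 against 12.6%. The early rise of Tead4 past 2-fold was therefore present in 4 lines and missing from Del95-99 (0.37) and Q133H (−0.53). From day 1 to day 2, wildtype had 0 against 20.3%, EMD-/y 0 against 19.2%, +EMD 1 (1.56) against 21.1% and S54F 0 against 21%. Del95-99 had 1 (2.00) against 14.7% and Q133H 1 (1.32) against 11.1%. The Tead4 ratios of wildtype (0.97) and S54F (0.99) were just inside the limit.

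**Figure D3:**
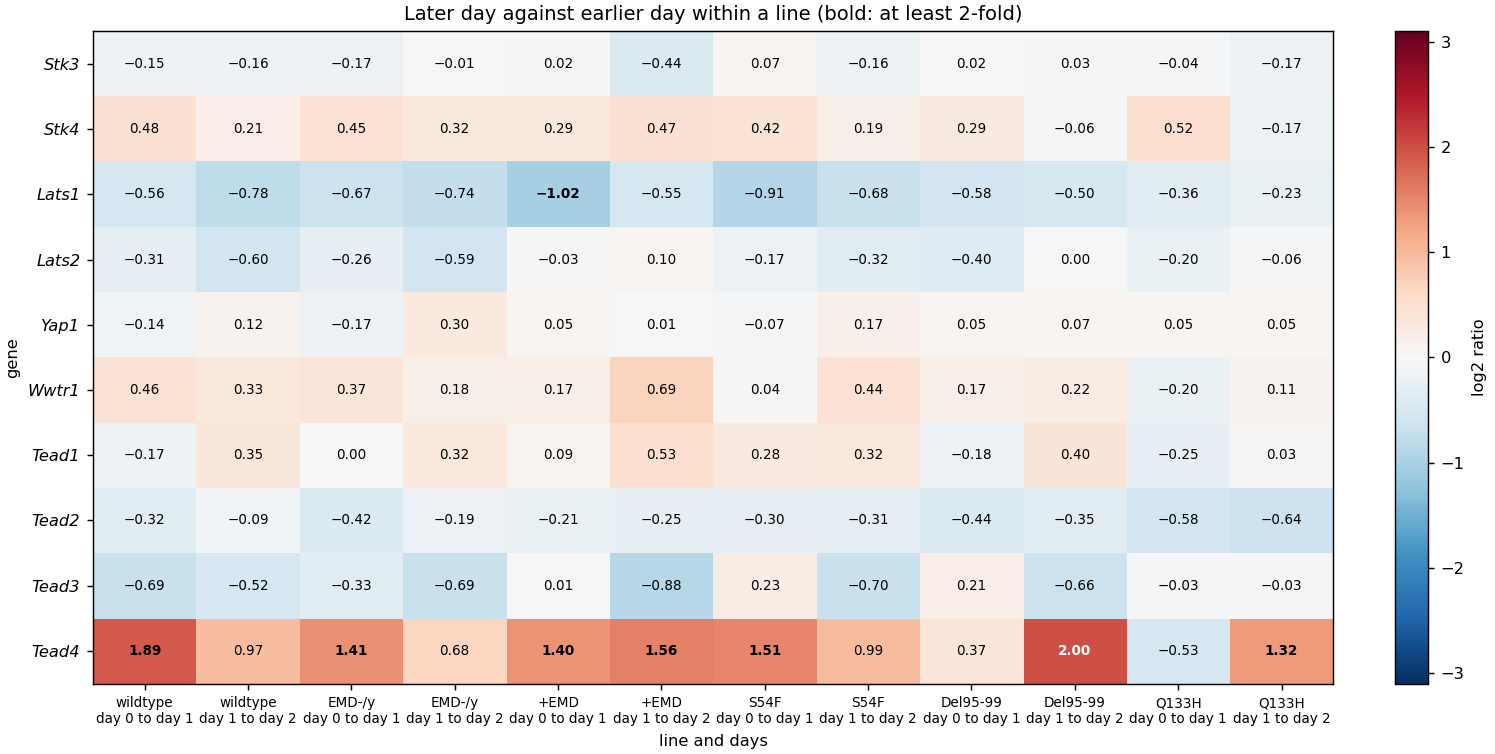
Log2 ratio of each of the 10 genes (rows) on the later day against the earlier day within each line (columns), from the deposited group values, with red for higher and blue for lower on the later day and values of at least 2-fold in bold. The Lats1 and Tead2 rows are blue in all 12 columns, and the Tead4 row is red in 11, the exception being Q133H from day 0 to day 1 at −0.53.

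The change between days was then set beside the wildtype change over the same days. It differed from wildtype by at least 2-fold in 3 of 100 values (10 genes, 5 lines and 2 steps), where 10.6% of the values of all genes did. All 3 were Tead4: the step from day 0 to day 1 gave a difference from wildtype of −2.42 on the log2 scale in Q133H and −1.52 in Del95-99, and the step from day 1 to day 2 one of 1.04 in Del95-99. When the same differences were taken from the tables against wildtype, they were −2.52, −1.58 and 1.03. Over all 100 values, both routes differed by a median of 0.01 and by at most 0.20 (Tead4 in Q133H from day 1 to day 2, 0.35 against 0.55). Below 2-fold, the largest differences were those of Tead3 from day 0 to day 1 in S54F (0.92), Del95-99 (0.91) and +EMD (0.70), followed by Lats2 in +EMD from day 1 to day 2 (0.70) and Tead3 in Q133H from day 0 to day 1 (0.67). These comparisons share the wildtype groups, so their values are not separate observations of the wildtype change.

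The make-up of the Tead family shifted as Tead2 fell and Tead4 rose. In wildtype, Tead4 was 5.73% of the summed Tead level per kb on day 0, 22.4% on day 1 and 35.5% on day 2, while Tead2 went from 43.3% to 36.0% and 27.3%. On day 2 Tead4 made up 32.2% to 35.5% in wildtype, EMD-/y, +EMD and S54F, 23.9% in Del95-99 and 11.6% in Q133H. The summed level in Q133H declined from 143 to 106 and 90.9 CPM per kb, because the fall of Tead2 was not offset by Tead4. In wildtype it was 144, 136 and 147. Tead2 was the most abundant Tead per kb on every day in +EMD, S54F, Del95-99 and Q133H.

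**Figure D4:**
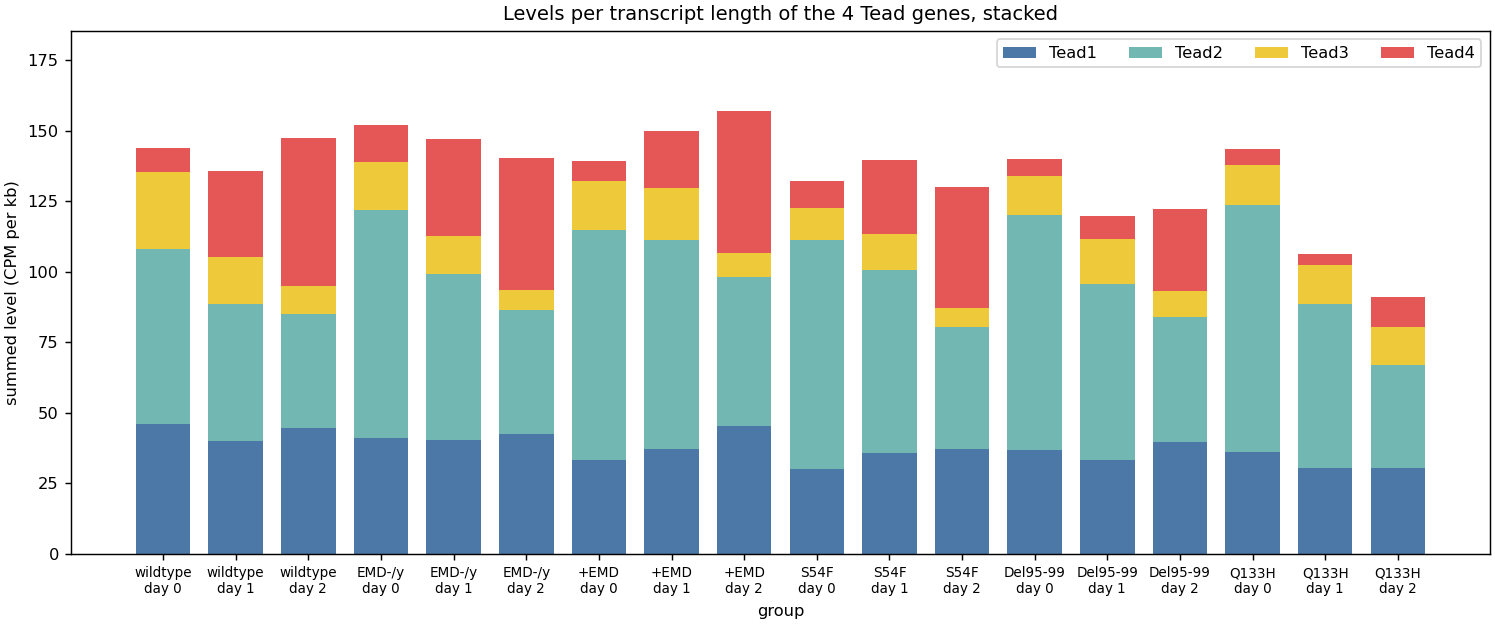
Level CPM per kb of Tead1, Tead2, Tead3 and Tead4, stacked in 1 bar for each of the 18 groups (linear axis from 0, 1 value per group). The Tead4 segment widens from day 0 to day 2 in wildtype, EMD-/y, +EMD and S54F, is narrower in Del95-99 and smallest in Q133H, whose day 2 bar is the lowest of all at 90.9.

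Markers of muscle differentiation moved with Tead4. Myog, the myogenic factor that marks commitment to differentiation, was at 419, 1990.3 and 2562 CPM in wildtype on days 0, 1 and 2. It was at 357, 588 and 2317 in Del95-99 and at 286, 175 and 1191 in Q133H. Mymk, which encodes the fusion protein myomaker, was at 185, 895 and 2586 in wildtype, 96.3, 124 and 1121 in Del95-99 and 109.5, 39.2 and 337 in Q133H. Both markers, like Tead4, were thus lower on day 1 than on day 0 in Q133H and rose late in Del95-99. The Mymk log2 ratio to wildtype on days 0, 1 and 2 was −0.58, −1.14 and −0.65 in +EMD. It was 0.49, −0.10 and −0.08 in EMD-/y and −0.14, −0.39 and −0.14 in S54F. Over the 18 groups the log2 level of Tead4 had a Pearson correlation of 0.96 with Myog and 0.98 with Mymk, and that of Lats1 had −0.84 and −0.90. The 3 proliferation markers summed to 19.3 CPM in wildtype on day 2, 58.5 in EMD-/y and 58.2 in S54F. On that day they summed to 376 in Del95-99, 359 in +EMD and 228 in Q133H. The part of these shifts in differentiation and cycling in the Tead4 and Lats1 values was not tested.

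**Figure D5:**
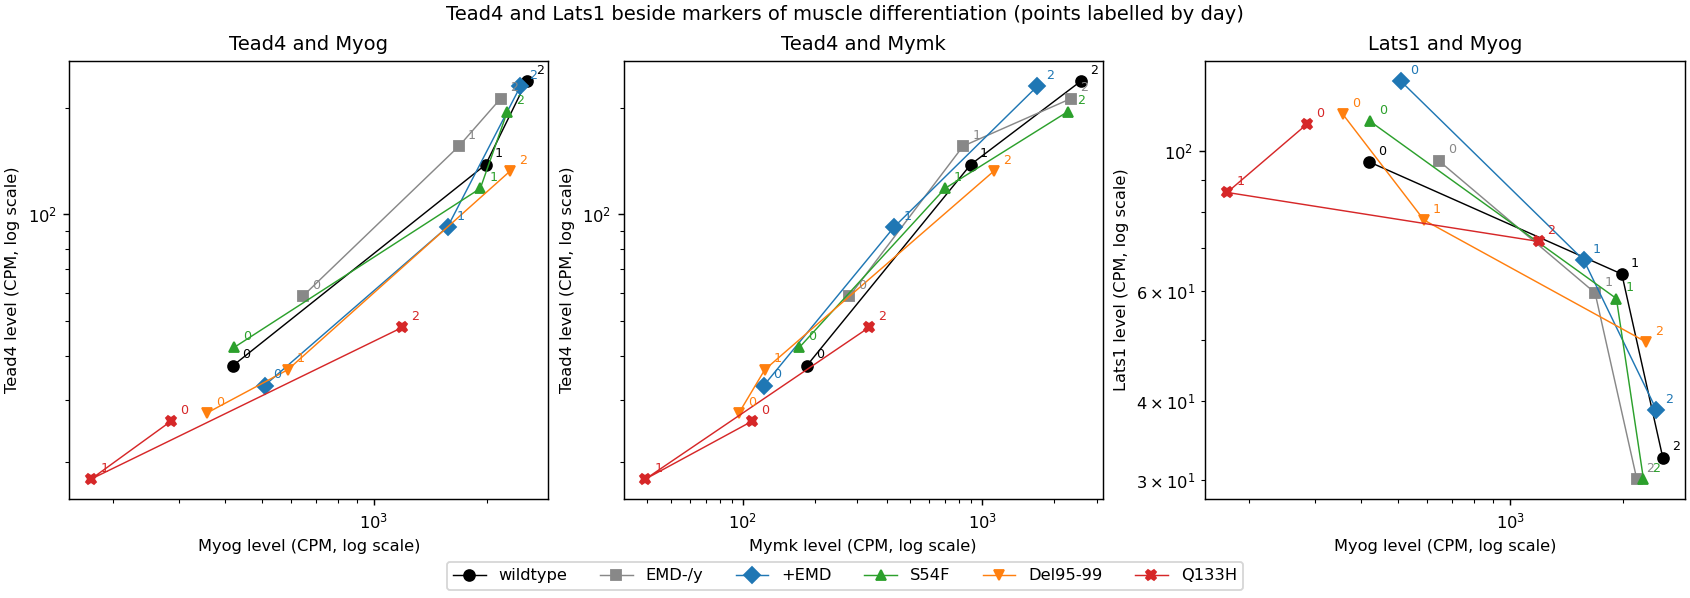
Level of Tead4 against Myog, Tead4 against Mymk, and Lats1 against Myog (CPM, log axes), with 1 point per group, labelled by day and joined within a line. Tead4 rises along both markers in all lines, with Q133H on day 1 at the lower left in the Tead4 panels. Within each line, Lats1 is lowest on the day when Myog is highest.

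The 18 groups were also used to find the genes whose levels ran most like each member, among 8797 named genes at 5 CPM or more in every group. For Tead4 these were Erbb3 (Pearson r of log2 levels 0.99) and Smyd1 (0.99), and for Lats1 they were Nfya (0.99) and Tlk1 (0.98). For Tead2 they were Srsf1 (0.96) and Srsf2 (0.95), and for Lats2 Maml2 (0.95) and Pik3c2a (0.93). The values were lower for the others: Yap1 with Nckipsd (0.94) and Me1 (0.90), Tead1 with Slco3a1 (0.93) and Vcl (0.88), Stk4 with Dhcr7 (0.90), Stk3 with Hspa12a (0.92) and Mpdz (0.92), Wwtr1 with Lrig2 (0.91) and Hoxa7 (0.86), and Tead3 with Alad (0.91) and Spata6 (0.91). Among the members themselves, Tead3 and Lats2 (0.81), Lats1 and Lats2 (0.80) and Lats1 and Tead2 (0.78) ran most alike, and Tead4 and Lats1 ran most opposite (−0.89). These are descriptions over 18 points that share lines, days and normalisation, so they are not independent.

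Of 39 other genes of the pathway (scaffolds, upstream regulators, phosphatase components and Vgll cofactors), 38 were listed. Over the 15 tables against wildtype they were at least 2-fold higher in 37 of 570 values (6.49%) and lower in 33 (5.79%), near or below the 8.15% and 8.36% of all genes. Between days the counts were 21 higher (4.62%) and 17 lower (3.74%) of 455. The largest medians belonged to regulators upstream of the kinases. Wwc1 (Kibra), a scaffold that promotes Lats activation, was at 2.76, 1.63 and 3.40 CPM in wildtype and at 5.89 to 28.4 in the other 15 groups, and was at least 2-fold higher in 13 of 15 tables (median log2 ratio 3.03). Rassf2, which binds and stabilises the Stk kinases, was below wildtype in all 15 tables and at least 2-fold lower in 11 (median −2.33), at 10.7 to 14.8 in wildtype and at 0.438 to 0.811 in Q133H. Dchs1, a protocadherin ligand of the pathway, was at least 2-fold higher in 10 tables, most of all in +EMD on day 0 (74.2 against 4.13 CPM, log2 ratio 4.18), and lower in Q133H on days 1 and 2 (−1.87 and −2.01). Its receptor Fat4 was at least 2-fold lower in 5 tables and higher in 3.

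The remaining genes with large medians moved less. Amotl2, an angiomotin that retains Yap1, had a median log2 ratio of −0.53 to wildtype, and Vgll3, a cofactor of Teads, −0.51. Amotl2 also belongs to the list of target genes below, so its values enter both sets of counts. Between days the leading medians were those of Strip2 (−0.64), Frmd6 (−0.61), Wwc1 (−0.59) and Rassf2 (0.48). Frmd6, an upstream activator also called Willin, fell from 317 to 143 and 73.4 CPM in wildtype and from 208 to 176 and 153 in Q133H, a decline in all 12 tables. Wwc1 and Rassf2 are low genes, whose ratios are the ones most drawn towards 0 in the deposited values.

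The other readout of the pathway, a list of 22 genes known to respond to Yap1 and Wwtr1, was followed without Lats2, which is a member. Of its values against wildtype 51 of 312 (16.3%) were at least 2-fold higher and 32 (10.3%) lower, where all genes gave 8.15% and 8.36%. Between days 24 of 251 (9.56%) were higher and 52 (20.7%) lower, where all genes gave 9.28% and 8.63%. All 4 shares were above those of all genes, the share of higher values between days by little, and the list moved in both directions. Igfbp3, Crim1 and Rbms3 held 13, 9 and 7 of the 51 higher values against wildtype, so that share rests largely on few genes. Ccdc80 held 6 of the 32 lower values. Igfbp3, a secreted binder of insulin-like growth factors, was at 9.85, 75.4 and 84.5 CPM in wildtype and at 60.1 to 299 in the other groups, at least 2-fold higher in 13 of 15 tables (median 1.51). Crim1, a transmembrane regulator of growth factors, was at least 2-fold higher in 9 tables (median 1.13) and held at 53.9 to 55.9 in Q133H while it fell from 38.3 to 2.66 in wildtype. The RNA-binding protein gene Rbms3 was at least 2-fold higher in 7 tables (median 0.87), and the matrix gene Ccdc80 at least 2-fold lower in 6 (median −0.86). In Q133H on day 2, 9 of 21 target genes were at least 2-fold higher than wildtype and 5 lower. In the same comparison, 33.9% of all genes passed in either direction. Yap1 was at a log2 ratio of 0.12 there and Wwtr1 at −0.21. On the CPM scale Yap1 was at 0.37 and Wwtr1 at 0.04, so the sign for Wwtr1 depended on the scale.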

How the data were processed

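Poly-A RNA was sequenced by the authors as paired reads, filtered with SOAPnuke, aligned with HISAT2 to mm10 and compared with DESeq2, per the labels and the study's methods. The deposited columns used here are a normalised signal per group: the mean of a table's 2 columns equals the mean over its 6 libraries of counts divided by size factors, and the split between both groups follows a fold change drawn towards 1 where reads are few. Per table, 715 to 913 genes took exactly the values of 1 read in 1 of 6 libraries, yet had no 0 in either column and log2 ratios of at most 0.44, where a plain mean would give 0 in 1 group. Ratios of low genes are therefore understated. The members held between 324 and 8932 normalised reads per group. The tables also give the authors' fold change, p-value, q-value and direction, which were not used. Symbols were matched by NCBI gene number for 17824 of the 19653 listed genes (RefSeq, GRCm38.p6). Transcript length is deposited per table, and its median was used per kb.

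From the files, levels, log2 ratios and counts past 2-fold were computed with Python 3.11.15, numpy 2.4.6 and pandas 2.3.3, and tested on simulated data. No test of a difference was made, as 0 columns hold values per sample. All members are reported in every comparison. From the other pathway genes the 6 with the largest median size of ratio against wildtype and the 4 between days are named, from the target genes 4, and for likeness the 2 most correlated genes per member (1 gene is not reported here). The members and lists were chosen with earlier results of these data known. Alternatives were a fold limit of 1.5 or 3, a pseudocount of 1 or 10, scaling to CPM, centring on the table's median, other backgrounds and 1 table per group. The tables hold 1475 to 1571 predicted genes without a symbol each, which entered the background. Reads of Wwtr1, Stk3, Lats1 and Lats2 overlap other gene records, and the library protocol does not mark strand.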

Additional observations from a re-analysis of the deposited data

How the results depend on the processing

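A fold limit of 1.5 gave 3 values of the 10 genes above wildtype and 15 below, 11 higher and 14 lower on the later day, and 11 day changes that differed from wildtype. A limit of 3 left 3 below wildtype, 2 higher and 0 lower on the later day, and 1 day change that differed. Scaling to CPM gave 1 value above wildtype (Lats1 in Q133H on day 2) and 4 below, without Tead3 and Tead4 in Del95-99 on days 0 and 2. Between days the counts were again 7 and 1, the latter Tead3 in +EMD from day 1 to day 2 in place of Lats1. Counts were otherwise within 1.5 times of those reported, with a pseudocount of 1 or 10, centring, and the other route to the day changes. On the CPM scale, 90 of 270 single ratios shifted by more than 0.1 and 17 changed sign, none of them past 2-fold. The other scalings shifted none by more than 0.1. Levels from 1 table per group moved no median by over 1.1 times, and the share of all genes past 2-fold was 17.1%, 17.1% with all listed genes, 12.6% at a mean of at least 100 and 15.7% without predicted genes. Leaving out single replicates was not run, because the tables hold 1 value per group. No paired analysis was possible because the columns carry no replicate. Depth does not limit the members, all with at least 324 normalised reads per group, but the unknown spread between replicates does.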
